A study of Drosophila melanogaster with 3 samples.

Results

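The zinc-finger genes snail (sna), escargot (esg) and worniu (wor) of Drosophila melanogaster were examined for binding of the chromatin protein Insensitive (Insv). These 3 genes of 13945 protein-coding genes were taken by name, and a window of the gene body plus 20 kb on each side was examined for every gene. Chromatin immunoprecipitation followed by sequencing (ChIP-seq) was done with an anti-GFP antibody on a single transgenic line that stably expresses Insv with GFP at its C-terminal end, from chromatin sheared to 200 to 800 bp. The 3 biological replicates were whole embryos of both sexes aged 0 to 24 h, all of that line and with no further genotype or treatment. They form 1 group with no second condition, and the labels do not say whether untagged Insv was still made.

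Snail family proteins bind E-box sequences of the form CAGGTG and repress transcription with the help of corepressors such as CtBP. In the early embryo sna is switched on by Dorsal and Twist in the presumptive mesoderm, where it represses genes of the neuroectoderm and allows the ventral furrow to form. Later all 3 genes act with overlapping roles in neuroblasts, the neural stem cells, during asymmetric division. The gene esg is also known for keeping imaginal cells diploid and for marking intestinal stem cells of the adult gut. Insv binds DNA through its BEN domain and is known as a repressor of Notch target genes.

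The 3 genes lie on chromosome arm 2L within 144 kb, with the genes CG15258 and CG44869 between esg and wor and CG4161 between wor and sna. On the dm6 build, esg (FBgn0287768) spans 15333866 to 15336138 on the plus strand and has 1 exon. The gene wor (FBgn0001983) spans 15423297 to 15425580 on the minus strand and has 2 exons, and sna (FBgn0003448) spans 15476593 to 15478260 on the minus strand and has 1 exon. Each has 1 annotated transcription start site (TSS). The distance from esg to wor is 87.2 kb and that from wor to sna 51.0 kb. Few other genes lie nearby: the windows hold 1 other protein-coding gene for sna (Tim17b2, of the mitochondrial import machinery), 1 for esg (nht, a TAF gene of the testis) and 2 for wor (CG4161 and CG44869), against a median of 9 over all protein-coding genes.

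The windows held 4 of 4753 IDR peaks, which the authors kept as reproducible between replicates (IDR stands for irreproducible discovery rate). The sna window held 3, the esg window 1 and the wor window 0. Every sequence below is from dm6, and 3 sets are shown. The first set shows the sequence around the summits of the IDR peaks that lie away from promoters, both in the sna window, with 100 bases to each side and on the plus strand. Capitals mark CCAAT, CCAATCAG, the Snail E-box CAGGTG and the BEAF-32 site CGATA, on either strand, and the upstream peak has none of them.

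sna downstream peak, 2L:15471591-15471791: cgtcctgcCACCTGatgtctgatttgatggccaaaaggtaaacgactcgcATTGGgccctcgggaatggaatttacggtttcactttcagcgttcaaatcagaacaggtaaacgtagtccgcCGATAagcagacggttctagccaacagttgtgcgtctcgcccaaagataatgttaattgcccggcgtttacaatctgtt
sna upstream peak, 2L:15492229-15492429: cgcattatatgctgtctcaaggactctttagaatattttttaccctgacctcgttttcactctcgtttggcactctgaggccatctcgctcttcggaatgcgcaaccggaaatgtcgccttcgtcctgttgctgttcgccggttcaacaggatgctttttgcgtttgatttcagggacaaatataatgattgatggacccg

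The second set shows the 200 bases directly upstream of each TSS, read on the strand of the gene, because peaks lay at 2 of these 3 promoters. Capitals mark TATAAA on the strand of the gene and, on either strand, CCAAT and the Zelda site CAGGTAG.

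sna promoter, 2L:15478261-15478460, minus strand: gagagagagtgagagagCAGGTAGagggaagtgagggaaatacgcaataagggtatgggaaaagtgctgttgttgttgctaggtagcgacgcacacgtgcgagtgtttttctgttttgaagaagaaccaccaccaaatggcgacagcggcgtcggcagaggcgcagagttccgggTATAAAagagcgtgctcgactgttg
esg promoter, 2L:15333666-15333865, plus strand: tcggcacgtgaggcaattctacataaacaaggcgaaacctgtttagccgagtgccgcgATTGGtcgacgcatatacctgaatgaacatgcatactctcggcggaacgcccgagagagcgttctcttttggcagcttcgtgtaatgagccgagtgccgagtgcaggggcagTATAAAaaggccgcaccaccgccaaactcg
wor promoter, 2L:15425581-15425780, minus strand: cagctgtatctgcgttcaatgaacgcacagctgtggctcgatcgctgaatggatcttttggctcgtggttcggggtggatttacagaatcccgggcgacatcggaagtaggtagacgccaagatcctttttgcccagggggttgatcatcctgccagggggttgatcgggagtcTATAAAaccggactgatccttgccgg

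The third set shows regions outside the IDR list, drawn as the first set and with the Elba site CCAATAAG also in capitals. They are shown because they were the strongest in the wor window or carried sequences related to the Insv and Elba sites.

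wor strongest relaxed region, 2L:15415667-15415867: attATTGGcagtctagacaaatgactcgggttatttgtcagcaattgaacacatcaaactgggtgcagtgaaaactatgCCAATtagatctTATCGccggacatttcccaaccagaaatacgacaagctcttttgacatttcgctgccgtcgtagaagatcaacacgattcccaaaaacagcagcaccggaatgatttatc
wor relaxed region with an Elba site, 2L:15444263-15444463: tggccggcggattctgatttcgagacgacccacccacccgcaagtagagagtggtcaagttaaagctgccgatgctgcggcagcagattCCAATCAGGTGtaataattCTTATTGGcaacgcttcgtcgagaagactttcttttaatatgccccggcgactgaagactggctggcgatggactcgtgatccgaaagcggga
sna downstream relaxed region, 2L:15475806-15476006: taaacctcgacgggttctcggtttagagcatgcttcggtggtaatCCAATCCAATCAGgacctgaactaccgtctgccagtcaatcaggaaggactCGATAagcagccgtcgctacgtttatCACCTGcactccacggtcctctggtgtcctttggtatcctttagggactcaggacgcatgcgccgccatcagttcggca

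The strongest Insv peak at the 3 genes lay downstream of sna, in intergenic DNA. It spans 2L 15471491 to 15471863, with its summit at 15471691, 6569 bp from the sna TSS and past the end of the gene. By the authors' signal score it ranked 1023 of 4753 IDR peaks. Each replicate has its own list of 30000 regions, and in these lists the region that contains the summit ranked 1243, 1224 and 1043 in replicates 1, 2 and 3. As a percentile, where 100 is the strongest region of a list, this gives 96.1 ± 0.368 (SD, n = 3). The replicates were closely alike here, and their own summits lay within 13 bp of the summit called from all replicates. The nearest TSS of any gene is that of the noncoding RNA gene lncRNA:CR45353, at 2164 bp, so the peak went to sna only among protein-coding genes.

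The second peak lay on the sna promoter, with its summit at 15478272, 12 bp upstream of the TSS, and ranked 2876. Its rank was 4822 in replicate 1, 2410 in replicate 2 and 3315 in replicate 3, or a percentile of 88.3 ± 4.06 (SD, n = 3). Replicate 1 was the lowest, just outside the 4753 strongest regions of its list, and the replicate summits lay within 31 bp. The third peak of the window, 139 bp long, had its summit at 15492329, 14069 bp upstream of the sna TSS. It ranked 3909, and its nearest protein-coding TSS was that of lace, a subunit gene of serine palmitoyltransferase, at 6798 bp. In replicates 1, 2 and 3 it ranked 6096, 3368 and 3088, a percentile of 86.1 ± 5.54 (SD, n = 3), again with replicate 1 lowest. Thus 2 of the 3 peaks were assigned to sna.

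The only IDR peak at esg lay on its promoter and was among the weaker ones of the list. Its summit, at 15333906, falls in the 5′ untranslated region, 40 bp downstream of the TSS, within a peak from 15333651 to 15334160. It ranked 4096 of 4753. The rank was 6012 in replicate 1, 5706 in replicate 2 and 2759 in replicate 3, with a percentile of 83.9 ± 5.99 (SD, n = 3). Replicate 3 stood above the others and alone held it among its 4753 strongest regions. The peak therefore did not stay in a set limited to the 4753 strongest regions of any pair of replicates, and the sna promoter peak stayed only for replicates 2 and 3. In all 3 replicates the region had a q-value below 0.05, and the replicate summits lay within 44 bp.

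No IDR peak lay in the wor window. The strongest region of the pooled relaxed list, which the authors called on all replicates together and which holds 30000 regions, ranked 4867 there, 114 places below the IDR list. Its summit, at 15415767, lies 9813 bp from the wor TSS on the downstream side, and its nearest protein-coding TSS is that of CG44869. In replicates 1, 2 and 3 it ranked 9505, 6105 and 3543, and the summit in replicate 1 lay 218 bp away. At the wor promoter itself the pooled list held a region with its summit at 15425632, 52 bp upstream of the TSS, at rank 17172. In replicates 1, 2 and 3 this region ranked 15504, 18584 and 27959, with a q-value of 0.05 or higher in each, and the summit in replicate 3 lay 243 bp away. Of the pooled regions nearest to wor, 0 of 3 had a q-value below 0.05, while 4 of 15 had one for sna and 1 of 5 for esg, against 41.7% of all regions of the pooled list.

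**Figure D1:**
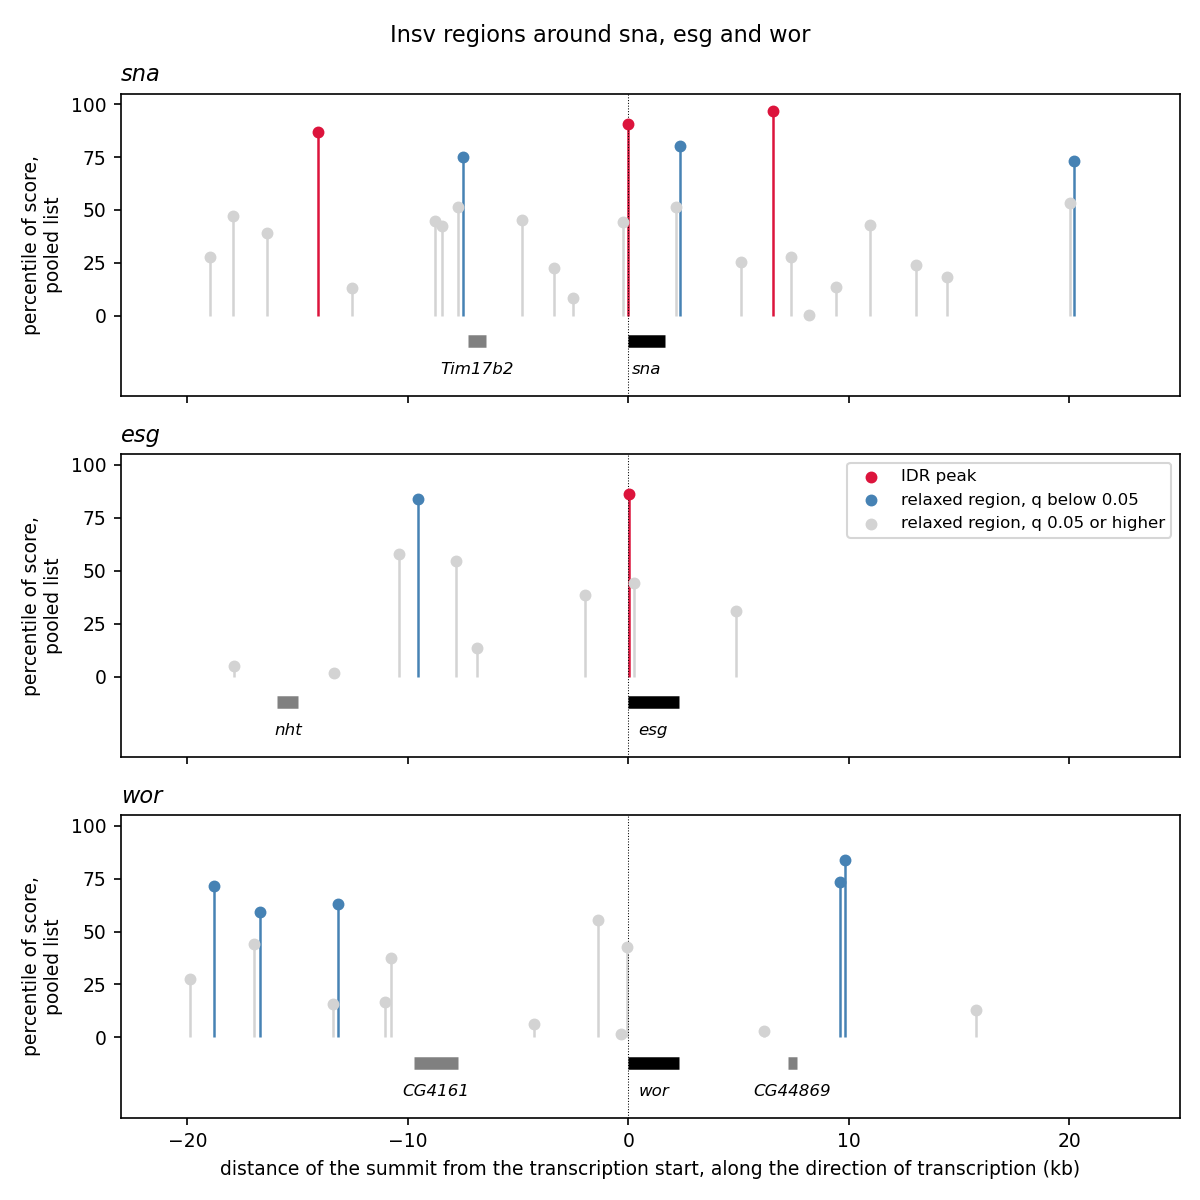
Regions of the pooled relaxed list in the windows of sna, esg and wor, by distance of the summit from the TSS in kb (x axis, positive values downstream) and percentile of the authors' score in that list (y axis). Red points are IDR peaks, blue points other regions with a q-value below 0.05 and grey points the remaining regions, and bars are protein-coding genes. The sna window holds 3 red points, the esg window 1 and the wor window 0.

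**Figure D2:**
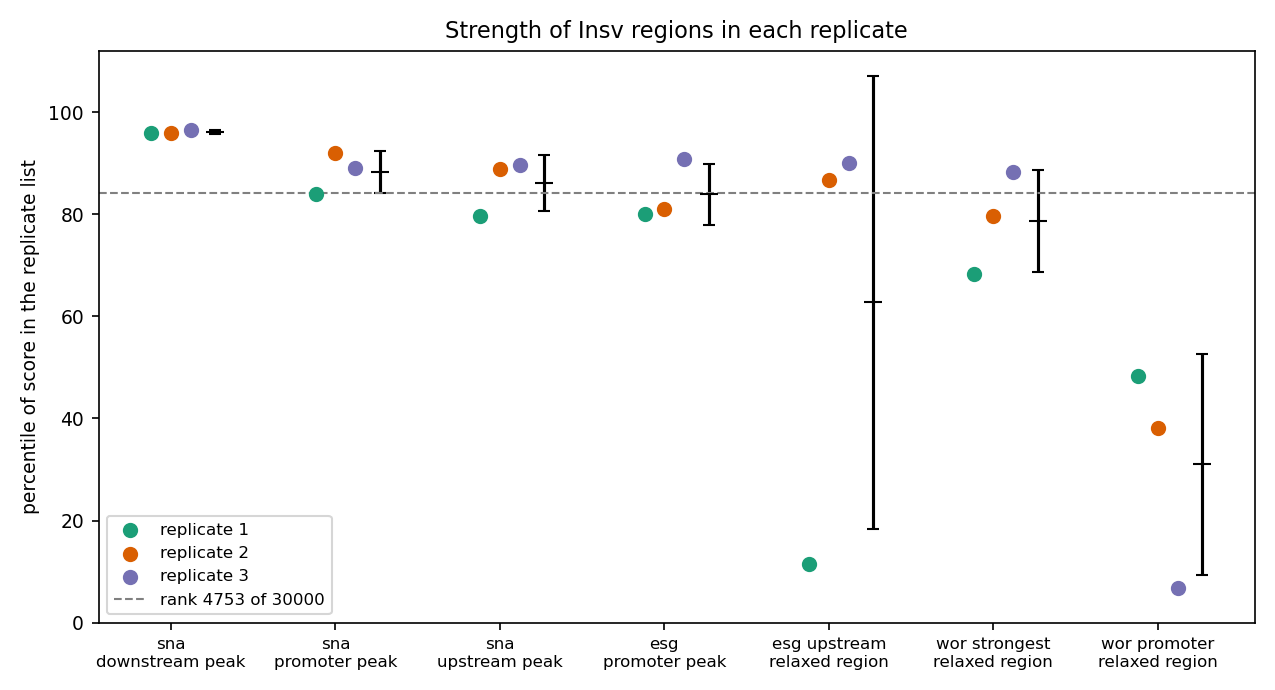
Percentile of the score in each replicate's own list (y axis) for the 4 IDR peaks and for 3 regions outside the IDR list (x axis). Coloured points are the replicates, black bars the mean and SD over the 3, and the dashed line marks rank 4753 of 30000. The sna downstream peak lies above the line in all 3 replicates, the esg promoter peak in replicate 3 alone, and the wor promoter region far below it in each.

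These counts were then set against all protein-coding genes. At least 1 IDR peak lay in the window of 74.8% of the genes and at least 3 in the window of 44.7%, while 25.2% had none, as wor did. The median over all genes was 2 peaks. By nearest protein-coding TSS, 22.6% of genes had at least 1 assigned peak, as sna and esg did, and 6.69% at least 2, as sna did. An assigned peak as strong as the best of sna was found for 5.85% of genes. A summit within 500 bp of a TSS, as at sna and esg, was found for 24.8% of genes. A region of the pooled list within that distance, as at wor, was found for 55.3% of genes, and one with a q-value below 0.05, as at sna and esg but not at wor, for 43.8%.

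Of the 4753 IDR peaks, 3004 lay within 500 bp of a protein-coding TSS, and the windows of the 3 genes hold few such sites. Among the 934 genes with at most 2 other protein-coding genes in the window, a comparison added after the data were seen, the median was 0 peaks and 63.1% had none. In this set at least 1 peak was found for 36.9% of genes and at least 3 for 10.3%. At least 1 assigned peak was found for 20.2%, at least 2 for 7.82% and one as strong as the best of sna for 6.10%. A promoter peak was found for 7.92%, a region of the pooled list at the promoter for 27.1% and one with a q-value below 0.05 for 17.5%. Counts of 3, 1 and 0 peaks for sna, esg and wor thus fall at different places in both distributions, and with 3 genes chosen by name no test was made of them as a set.

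**Figure D3:**
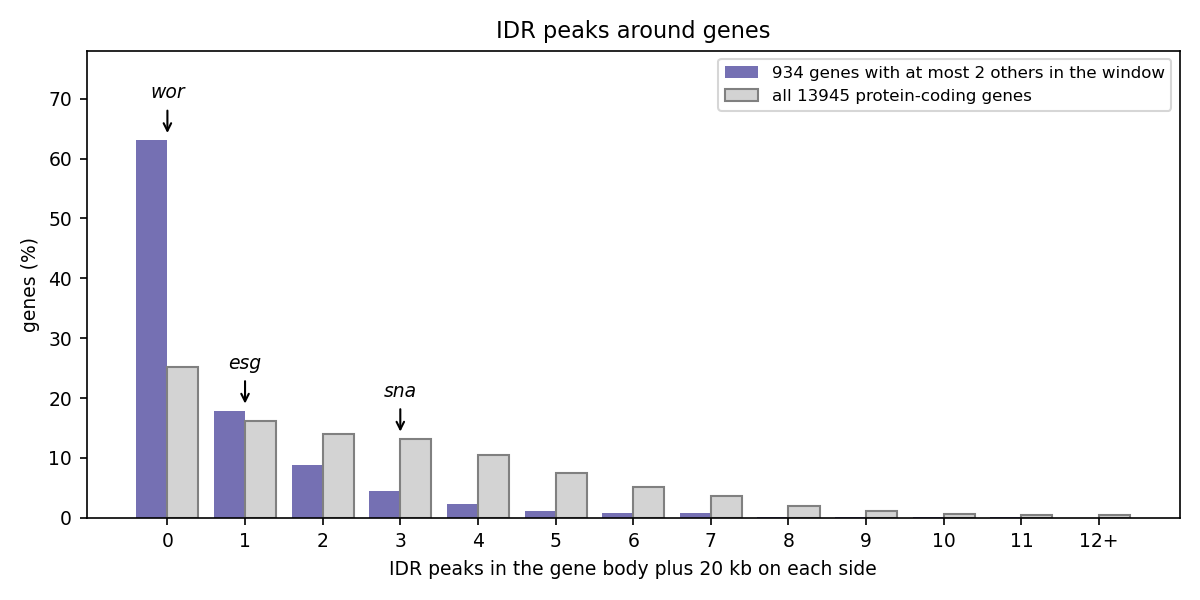
Share of genes (y axis, in percent) by number of IDR peaks in the gene body plus 20 kb (x axis), for the 934 genes with at most 2 other protein-coding genes in the window (purple) and for all 13945 protein-coding genes (grey). Arrows mark the 3 peaks of sna, the 1 of esg and the 0 of wor.

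Over the whole stretch from the esg window to the sna window, 2L 15313866 to 15498260, there were 4 IDR peaks. Their density was 2.17 per 100 kb, and that of the genome 3.55. Protein-coding genes were also fewer there, at 4.34 against 10.4 per 100 kb. The esg promoter peak and the sna downstream peak are neighbours in the IDR list, 138 kb apart, and wor lies between them. Of the 4747 distances between neighbouring IDR peaks 3.56% were longer, and the median distance was 7.08 kb. This share counts gaps and not bases, and long gaps cover more of the genome than their number tells. The gap was also looked at because wor lies in it, so the share does not show that the location is unusual. The gap was not empty in the pooled list, which held 30 regions there, 6 of them with a q-value below 0.05. In the separate windows such regions came to 14.4 per 100 kb for sna, 4.73 for esg and 11.8 for wor, against 9.35 over the genome. The wor window thus held 5 regions of this kind and the esg window 2, although 2 of those at wor are neighbouring calls at 15415767 and 15415986.

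The replicates did not list these weaker regions equally. Regions with a q-value below 0.05 numbered 4, 7 and 7 in the sna window for replicates 1, 2 and 3. The esg window had 1, 3 and 4, and the wor window 0, 5 and 5. Replicate 1 was lowest in each window, and it also had the fewest such regions over the genome, 8416 against 13955 and 12195 in replicates 2 and 3. The part of this difference in the windows was not tested. Whole embryos of all ages hold many cell types, so strong binding in few cells and weak binding in many cannot be told apart in any of these values.

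The 20 kb limit decided what was counted on one side of sna. A much stronger peak, rank 58, had its summit at 15499080, 820 bp beyond the edge of the sna window and 47 bp upstream of the lace TSS, while the third peak above lies inside. On the far side of esg the next IDR peak, rank 374, lay 26868 bp from the gene, 6868 bp outside the window, and was nearest to CG15262. The IDR limit itself fell close to another region in the esg window. A relaxed region with its summit at 15324343, 9523 bp upstream of the esg TSS, ranked 4774 in the pooled list, 21 places below the IDR list. Its nearest protein-coding TSS is that of nht, at 5442 bp. It ranked 4019 and 2989 in replicates 2 and 3, but 26507 in replicate 1, where the region that contains the summit is centred 223 bp away.

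**Figure D4:**
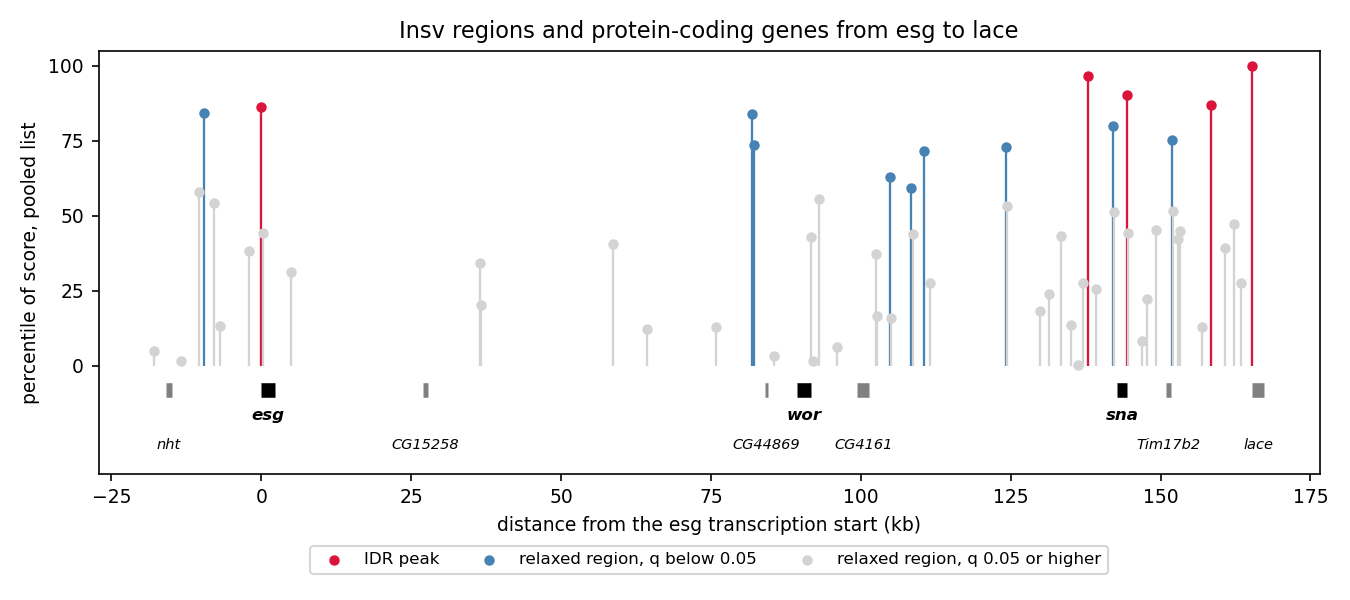
Regions of the pooled list from the esg window to the start of lace, by distance from the esg TSS in kb (x axis) and percentile of the score (y axis), coloured as in the plot of the windows, with protein-coding genes as bars. No red point lies in the 138 kb between the esg promoter peak and the sna downstream peak, and the last one is the peak at lace.

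The strength of the regions was compared between the 3 genes over the replicates. The best assigned peak of sna had percentiles of 95.9, 95.9 and 96.5 in replicates 1, 2 and 3, against 80.0, 81.0 and 90.8 for esg. The sna peak was higher in 3 of 3 replicates, by 12.2 ± 5.62 points (SD, n = 3). It is the better of 2 peaks assigned to sna, picked by a rank that draws on these same replicates. For esg there was only 1 assigned peak, so this choice favours sna. The exact permutation test within replicates, two-sided, gave p = 0.25, the smallest that 3 replicates allow, and an adjusted p of 0.333 over 4 pairs compared. No pair can therefore pass a threshold of 0.05.

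At the promoters, sna and esg overlapped: the sna region was higher by 4.37 ± 6.43 points (SD, n = 3) and in 2 of 3 replicates (exact permutation test, p = 0.5). The wor promoter region had percentiles of 48.3, 38.1 and 6.81, below both others in 3 of 3 replicates. The difference was 57.2 ± 23.4 points for sna minus wor and 52.9 ± 27.6 points for esg minus wor (SD, n = 3; exact permutation test, p = 0.25 for each). Both differences exceed their SD, and their adjusted p was 0.333 each. The comparison at promoters was added after the data were seen, since wor had no assigned IDR peak. The sna and esg regions are IDR peaks, called from these same replicates, and the wor region is not. Its lower place was therefore largely set in advance, and the 2 differences from wor are no separate evidence. In replicate 3 the wor value also belongs to a region with its summit 243 bp away.

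Sequences that Insv is known to bind lie at few IDR summits, and none lay at the summits of these peaks. The Insv core CCAATTGG lay within 50 bp of 0 of the 4 summits, against 3.47% of all IDR summits, and the longer degenerate Insv site also at 0 of 4, against 4.50%. The same held for the site CCAATAAG of the related Elba complex, at 1.83% of all IDR summits. With shares this low, 0 of 4 is the likely count for any 4 IDR peaks, so it does not set these peaks apart. For the 3 peaks assigned to sna and esg, no Insv site was found anywhere in the peak. The share of all IDR peaks by that rule was not counted. Within 100 bp of the summit the core was found for only 4.59% of them, so this absence too is common. All motifs were searched on both strands, and CCAAT is part of the Elba site and of the core.

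Such sequences did occur elsewhere in the windows. The sna window holds 2 core palindromes and 1 Elba site, the esg window 1 core and the wor window 2 Elba sites. Sites were not counted in the windows of other genes, so these numbers cannot be called many or few. The core at 2L 15467186 to 15467193 lay 131 bp from the summit of a weak region downstream of sna, rank 17064 in the pooled list, and the other core of the sna window lay in no listed region. The only core near esg, at 15348889, lay 10128 bp from the nearest listed summit in its window. In the wor window, an Elba site at 15444371 to 15444378 had its middle 12 bp from the summit of a region at 15444363, which ranked 8543 in the pooled list. Its ranks in replicates 1, 2 and 3 were 9064, 10119 and 10196.

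That wor region, the third in strength in its window, also carried the Snail E-box CAGGTG, at 15444357, overlapping CCAATCAG to read CCAATCAGGTG in the sequence shown above. CCAATCAG is one of the sequences known from earlier results of these data to be frequent under Insv peaks, at 2.38% of IDR summits within 50 bp, against 0.320% of the weaker 50% of the pooled list. Counting to the first base of a match, CCAATCAG lay 50 bp from the summit of a second relaxed region, 2354 bp downstream of the sna TSS, which ranked 5995. This sna region too has a CAGGTG, at 22 bp from the summit, and a CGATA at 4 bp. The sna downstream peak has CAGGTG 92 bp from its summit and CGATA 22 bp away. The esg relaxed region of rank 4774 has CAGGTG 57 bp from its summit and CGATA 68 bp away. Other regions lack one or both. Within 50 bp of the summit, the esg promoter peak has CGATA but no CAGGTG, and the sna promoter and upstream peaks have neither. The strongest wor region has CGATA 9 bp from its summit and no CAGGTG within 100 bp. CAGGTG was no more common under IDR peaks than in the weaker 50% of the pooled list, which is not unbound DNA. It lay within 100 bp of 6.75% of IDR summits and of 8.07% of the weaker regions. CGATA, which the boundary protein BEAF-32 binds, lay within 100 bp of 33.4% and 22.9%. These matches are letters in a window and do not show that a factor was bound.

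The promoters share a sequence that has no part in how the genes were chosen. TATAAA, the core of the TATA box, begins 25 bases upstream of the TSS of sna, 30 bases upstream at esg and 26 bases upstream at wor. On the strand of the gene and from 40 to 20 bases upstream of the TSS, TATAAA was found at 6.80% of 19607 protein-coding starts. This was sought after the promoters had been read, and it is shared by wor, which had no promoter peak. The sna promoter also has the Zelda site CAGGTAG, which an activator of the early embryonic genome binds, 183 bases upstream. It is found in the 200 bases upstream of 1.19% of starts, and not in those of esg or wor.

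Of the other Snail family genes, Kah had a promoter peak at rank 2822, with its summit 191 bp from a TSS and a percentile of 89.7 ± 2.11 (SD, n = 3). The genes scrt, which acts in neurons, and CG12605, which are neighbours on 3L, had no IDR peak in their windows. Their strongest relaxed region was the same one, at rank 4823. Among genes for factors that work with Snail proteins or act before and after them, promoter peaks were found for 16 of 35 (45.7%), against 24.8% of all protein-coding genes. The lists were drawn up with results of these data known, so the share is given as a description.

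Corepressor genes had promoter peaks in 3 of 4 cases, gro at rank 1306, ebi at 2698 and CtBP at 2708, with none at HDAC1. Of 5 genes that act before sna along the dorsal-ventral axis or at the onset of zygotic transcription, cact, for the inhibitor of Dorsal (rank 1960), and the receptor gene Tl (2655) had one, but dl, twi and zld had none. Among genes of the neuroectoderm that Snail represses the count was 3 of 10. These were the polarity gene crb at rank 2394, the protease gene rho at 4135 and the proneural gene l(1)sc at 4237. All these counts cover promoters only, and genes without a promoter peak could have IDR peaks elsewhere in their windows. The windows of sim, ths and brk held stronger ones than crb has at its promoter, at ranks 363, 896 and 1185. The best in the windows of ind and sog ranked below crb, and vnd and Delta had no IDR peak there. The promoter peaks of rho and l(1)sc had ranks close to the 4096 of esg. In replicate 1, however, the l(1)sc region ranked 12293 and had a q-value of 0.05 or higher, unlike those of rho and esg. Gastrulation genes had 2 of 5, T48 at rank 1208 and mthl1, a receptor gene, at 3085. Genes of neuroblast division had 6 of 11, with the cyclin gene CycE at rank 72, the translational repressor gene brat at 83 and the phosphatase gene stg at 990. All 3 ranked above every peak assigned to sna or esg.

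Genes with a pattern most like that of sna and esg were sought among 3111 of the 3155 genes with an assigned peak. The number of assigned peaks, the mean percentile of the strongest over the 3 replicates and its distance to the TSS were used, each scaled by its SD. Nearest to sna were CG15040, Yeti and Lrch, at distances from 0.153 to 0.197, each with 2 assigned peaks and the stronger one 5014 to 5680 bp from the TSS. Nearest to esg were Ugt302C1, CG14545 and Coa8, at distances from 0.0237 to 0.0413, each with 1 assigned peak 37 to 43 bp from the TSS. The gene wor had no assigned peak and so no such value.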

How the data were processed

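Insv-GFP ChIP-seq was deposited for 3 replicates as region lists in narrowPeak format. Of these, 5 lists on dm6 were used: 1 relaxed list for each replicate, 1 for the replicates pooled, and the IDR peaks. Per the text files deposited with them, each relaxed list was derived from the replicate alignments and a further alignment. The deposited signal column was taken as a score whose scale is not stated, and was used for ranks inside 1 list only. Deposited −log10 q-values were read only against a threshold of 0.05. The deposited summit offset gave the summit. Which software made the lists, its IDR limit and the read depth are facts not given in the sources used here. Precision is therefore judged from the spread over replicates. Since the IDR list equals the first 4753 ranks of the pooled regions, no replicate is independent of it.

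Positions are dm6, counted from 1. Genes and TSSs came from Ensembl release 115 and sequence from the RefSeq copy of the same assembly, on the major arms. Lists on dm3 were not used. A summit went to the nearest protein-coding TSS. The replicate region that contains the summit gave its rank there. The replicates are separate biological samples per the labels.

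The genes, lists and motifs were chosen with earlier results of these data known. Named genes are the 3 genes, the genes assigned peaks in their windows and the relatives Kah, scrt and CG12605. Up to 3 genes per list by promoter rank and 3 genes most alike are also named. Genes beside the window edges and further genes of the neuroectoderm list were named after their values were seen. The symbols Delta and mthl1 replaced older ones. The alternatives were other flanks, distances, peak sets, matching rules and leaving out each replicate in turn, which kept an IDR peak only if each remaining replicate had it in its top 4753. The methods were tested on simulated data. Python 3.11.15, numpy 2.4.6, pandas 2.3.3, scipy 1.17.1, statsmodels 0.14.6 and matplotlib 3.10.9 were used.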

Additional observations from a re-analysis of the deposited data

How the results depend on the processing

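Leaving out a replicate is here a stricter filter on the IDR peaks, not a removal of data. The peaks in the sna window then numbered 1 to 3, those assigned to sna 1 to 2 and those at its promoter 0 to 1, with the lower values without replicate 2 or 3. At esg each of these counts was 0 without any of the 3 replicates, since the peak was among the strongest of replicate 3 alone. The best sna percentile ranged from 95.9 to 96.2, and that of esg from 80.5 to 85.9. In the stronger 50% of IDR peaks, sna kept 1 peak, assigned to it and not at its promoter (0 there), and esg had 0. With the TSSs of all genes, 1 peak was assigned to sna. With a flank of 50 kb the esg window held 2 peaks and the wor window 1, which is the sna downstream peak. Counted among regions with a q-value below 0.05, the percentile was 89.3 ± 3.53 for sna and 55.0 ± 24.7 for esg (SD, n = 3). The spread over replicates was thus wider by this rule for both. With the background limited to genes in sparse windows, the share with at least 1 peak was 36.9%, that with none 63.1%, that with at least 2 assigned peaks 7.82% and that with a promoter peak 7.92%. Of 111 alternative values, 81 stayed close to the value reported and 30 moved. Many of those that stayed could not move, since a count of 0 stays 0 when peaks are removed. This holds for most counts at wor and for Insv sites with a replicate left out. Each of the 4 differences between genes kept its direction under each alternative. For the strongest assigned peak and for the promoters set against wor, the choice of regions itself favoured that direction. No paired analysis was possible because all 3 samples form 1 group with no second group to pair them with, whereas the tests between genes were made within replicates. Read depth is unknown, and weak regions near the IDR limit rest on ranks alone.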
